A study of Gossypium barbadense and Gossypium hirsutum with 4 samples.

Results

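Actin and villin signals were described in cotton fiber of *Gossypium barbadense* (*Gb*) and *G. hirsutum* (*Gh*) with 10 probe sets of the 24132 on the Affymetrix cotton array. A first 4 belong to transcript clusters of the array: the A1 and S1 sets of a cluster called here ACT11-like actin, 1 set of another cluster called here the second actin, and 1 set of a villin cluster. They were chosen by their difference between *Gb* and *Gh*, or as the partner of a set so chosen, so that difference is given for them as a description, without a test. The other 6 are all the actin control sets of the array, 3 designed from *G. hirsutum* (AFFX-Ghi-actin) and 3 from *G. raimondii* (AFFX-Gra-actin), a diploid related to the donor of the D sub-genome of both tetraploid cottons. They were taken by name, although the lower 5′ to 3′ signal of the *G. hirsutum*-designed actin sets in *Gb* was already known when the group was put together.

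Actin polymerizes from monomers into filaments, and the filaments carry vesicle traffic and organize the cytoplasm of the elongating fiber, a single cell that grows out of the seed coat epidermis. Villins bind and bundle actin filaments. Tetraploid cotton carries homoeologous copies of most genes, one from each of its A and D sub-genomes, so a probe set can respond to either copy or to both.

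The *Gb* arrays (1 and 2) held fiber RNA of the variety VH8-4602 and the *Gh* arrays (30 and 29) that of Guazuncho 2, both at 11 dpa (days post anthesis), with 2 arrays per genotype. The plants were untreated and grew in a glasshouse, and RNA was pooled from 4 plants, so each array averages over plants and each species is represented by 1 variety. Replicates are described as independent, but the labels do not say how they were grown apart, and p-values measure the spread between these arrays only. In whole fiber RNA, fewer cells of a type and less RNA per cell cannot be told apart.

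All values are log2 signals as deposited, on which 1 unit is a doubling. A signal under 4 was treated as below the floor. Levels of different probe sets cannot be set against each other, since probes bind with different strength. The probe sequences were not used here, so a difference in the amount of a transcript and a difference in how well the probes fit the copies of that species cannot be told apart, and it was not tested whether the *G. raimondii*-designed sets respond to the D copy alone. In the set names, 5, M and 3 give the position along the transcript from its 5′ end through the middle to its 3′ end. The suffix _s marks probes that several transcripts share, and _x marks sets with probes that may bind other transcripts. The S1 and A1 sets of a cluster read opposite orientations of its consensus.

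The array medians lay between 4.27 and 4.38, and 47.0% to 47.4% of probe sets reached a signal of 5. *Gb* array 2 stood apart in the poly-A spikes, bacterial transcripts added to the RNA, with a mean of 8.11 over 36 sets against 6.99 to 7.25 on the other arrays. The hybridization controls were higher in *Gb* by 0.29 on the log2 scale. The 4 markers of elongating fiber (alpha-expansin and lipid transfer protein sets) had a log2 summed signal of 13.65 and 13.72 in *Gb* and 15.07 and 15.06 in *Gh*. The 3 green tissue markers summed to 7.50 and 8.07 in *Gb* and to 9.44 and 9.79 in *Gh*. A single set carried most of each sum, a lipid transfer protein set (13.49 and 13.56 in *Gb*) and a Rubisco large subunit set (6.72 and 7.44 in *Gb*). A photosystem set was under the floor in *Gb* (2.48 and 2.56). By read counts the study names expansins and lipid transfer proteins among genes higher in *Gb*, and it gives some lipid transfer proteins as higher in *Gh* on both platforms. All 7 marker sets were higher on both *Gh* arrays. That is fixed by their choice from the 1159 entries read of the study's list, all higher in *Gh*. The study's full list also holds sets higher in *Gb*. The part of the markers in the actin values was not tested.

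A single actin sequence was available from the study's designed oligos. It is shown because it was designed on a base called from sequence reads as different between the same 2 varieties in an actin transcript. Whether genotyping bore out this base was not examined here. Primers were designed on the actin contig step1_rep_c48031 (marker SNP46). The final base, in capitals, lies on the called polymorphism.
Forward primer on the contig: gaactttgctttgttctaatggA
Guazuncho 2 primer: gccacgaactttgctttgttctaacggA
VH8-4602 primer: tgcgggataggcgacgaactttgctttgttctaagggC
Reverse primer: tggtacatggattcctgatga
Counted from 1 at the 5′ end of the contig primer, the Guazuncho 2 primer carries T20C, and the VH8-4602 primer carries T20G and A23C. Position 23 is the base called as polymorphic. The differences at position 20 are destabilizing mismatches that were put into the primers by design, and not differences between the varieties. The first 5 bases of the Guazuncho 2 primer and the first 15 of the VH8-4602 primer are a tail that is not in the contig primer. The contig was not matched to any probe set, so no value below is tied to this site, and the positions of the probe sets in a genome were not used here.

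**Figure D1:**
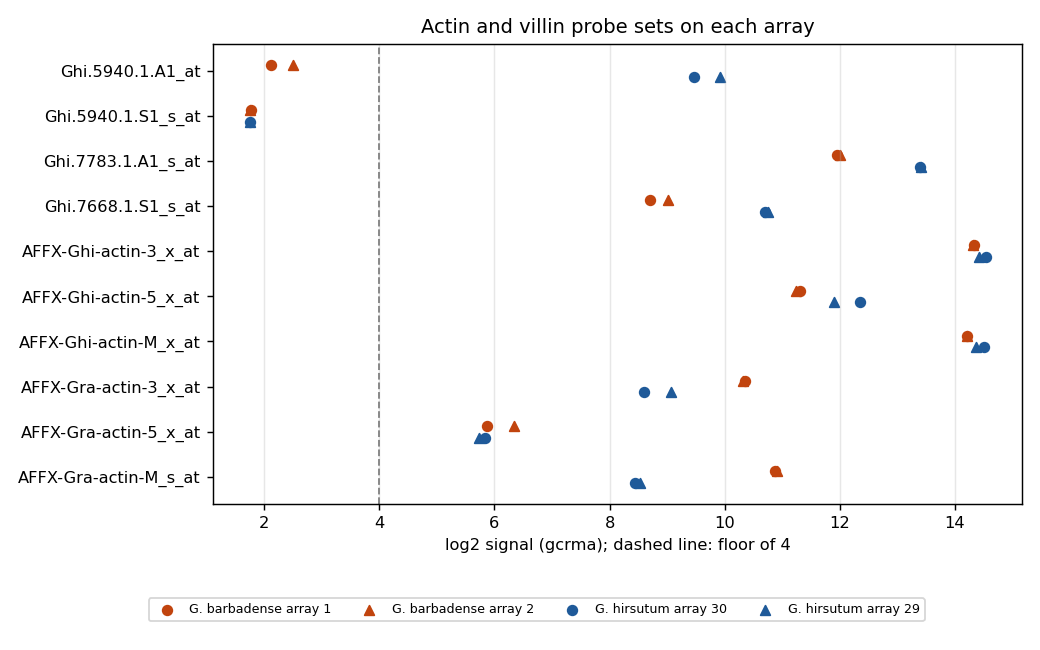
Log2 signal (x axis) of the 10 actin and villin probe sets (y axis) on each of the 4 arrays, with *Gb* in orange and *Gh* in blue and a dashed line at the floor of 4; the first 4 sets from the top are the A1 and S1 sets of the ACT11-like actin, the second actin and villin. The ACT11-like actin A1 set, at the top, lies under the floor on both *Gb* arrays and at 9.47 and 9.93 on the *Gh* arrays, and the *G. raimondii*-designed sets lie higher in *Gb*, with a small gap for the 5′ set.

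The actin control sets differed between the genotypes in opposite directions by design species. All 3 sets designed from *G. hirsutum* were higher on both *Gh* arrays, a pattern that 19.6% of all probe sets had. All 3 designed from *G. raimondii* were higher on both *Gb* arrays, as were 62.3% of all probe sets. Both shares include dim sets, since only 47.0% to 47.4% of sets reached a signal of 5, and no share was taken over the brighter sets alone. In limma over all 24132 sets, 2 of the 6 actin sets passed an adjusted p of 0.05, both *G. raimondii*-designed and both higher in *Gb*. Over the whole array 20.2% of sets passed, 11.4% as higher in *Gb* and 8.82% as higher in *Gh*.

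The middle *G. raimondii*-designed set, AFFX-Gra-actin-M_s_at, had the larger difference of the 2 sets that passed. Its signals were 10.87 and 10.91 in *Gb* and 8.44 and 8.53 in *Gh*. The arrays of a genotype lay within 0.1 of each other and the genotypes did not overlap. *Gb* was higher by 2.41 ± 0.048 (SE, n = 2 arrays per genotype), a 5.31-fold difference (limma adjusted p = 0.00243), and its difference was the 212th highest on the array. Without *Gb* array 2, which stood apart in the spikes, it was 2.39 (limma adjusted p = 0.0261).

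The 3′ set of the same design, AFFX-Gra-actin-3_x_at, had signals of 10.36 and 10.32 in *Gb* and 8.60 and 9.07 in *Gh*. The *Gb* arrays were close together and the *Gh* arrays further apart, without overlap. *Gb* was higher by 1.504 ± 0.19 (SE), or 2.84-fold (limma adjusted p = 0.0261). The call was lost without either *Gb* array while the difference barely moved, at 1.48 without *Gb* array 1 and 1.52 without *Gb* array 2. Without either *Gh* array the call was kept and the difference moved more, to 1.27 without array 30 and 1.74 without array 29.

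The 5′ set, AFFX-Gra-actin-5_x_at, was the dimmest of the 6, at 5.86 and 6.34 in *Gb* and 5.83 and 5.73 in *Gh*. *Gb* array 1 and *Gh* array 30 nearly coincided. The difference of 0.32 ± 0.20 (SE) did not pass (limma adjusted p = 0.356). It was 0.084 without *Gb* array 2 and 0.56 without *Gb* array 1.

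Of the *G. hirsutum*-designed sets none passed (limma), although 2 of the 3 had an unadjusted p under 0.05. The 5′ set, AFFX-Ghi-actin-5_x_at, showed the widest gap, with 11.30 and 11.24 in *Gb* and 12.35 and 11.90 in *Gh*. Both *Gh* arrays were above both *Gb* arrays, and array 30 was the higher. The difference was -0.85 ± 0.19 (SE, *Gb* minus *Gh*), 1.80-fold higher in *Gh* (limma adjusted p = 0.0746). Leaving out 1 array moved the limma adjusted p both ways, to 0.216 without *Gb* array 1, 0.225 without *Gb* array 2, 0.0376 without *Gh* array 30 and 0.0208 without *Gh* array 29.

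The middle and 3′ sets of this design were among the brightest of the array. AFFX-Ghi-actin-M_x_at had 14.20 and 14.22 in *Gb* and 14.50 and 14.37 in *Gh*, a difference of -0.23 ± 0.058 (SE, limma adjusted p = 0.101). AFFX-Ghi-actin-3_x_at had 14.33 and 14.31 in *Gb* and 14.53 and 14.41 in *Gh*, a difference of -0.15 ± 0.055 (SE, limma adjusted p = 0.194), which was -0.089 without *Gh* array 30. Neither overlapped between genotypes, and the folds, 1.17 and 1.11, were small. At most 0.808% of probe sets were brighter than either of them in *Gb* and 0.617% in *Gh*, and the highest signal on any array was 16.16. When the arrays were scaled to the hybridization controls, all 3 *G. hirsutum*-designed sets passed as higher in *Gh*, as did 23.7% of all sets, and the middle and 3′ *G. raimondii*-designed sets still passed as higher in *Gb*, as did 8.17% of all sets. That scaling moved the median of all differences by -0.29.

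**Figure D2:**
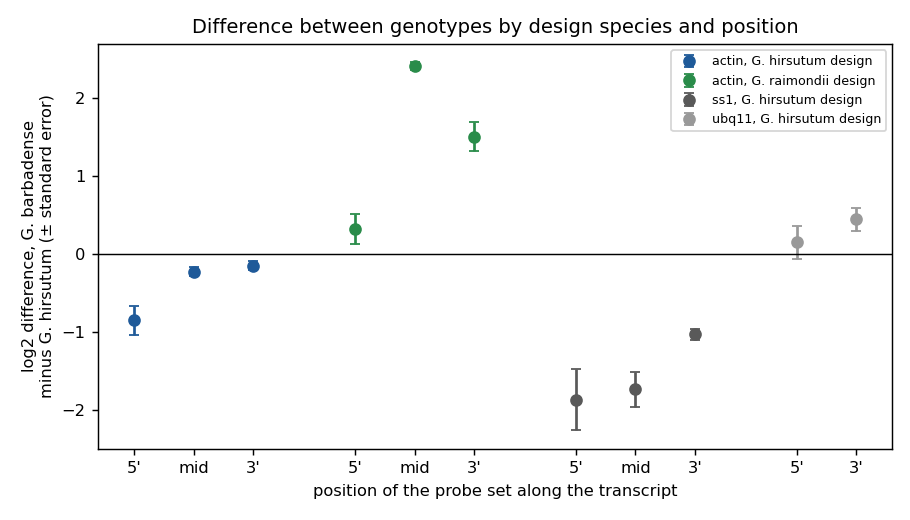
Difference in log2 signal, *Gb* minus *Gh* (y axis, ± SE from limma, 2 arrays per genotype), by position along the transcript (x axis) for the actin control sets of both designs and for the ss1 and ubq11 control sets designed from *G. hirsutum*. The *G. hirsutum*-designed actin sets lie between -0.85 and -0.15 and the *G. raimondii*-designed ones between 0.32 and 2.41.

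The contrast of the designs was read within each array as the *G. hirsutum*-designed minus the *G. raimondii*-designed log2 signal at the same position, and then compared between genotypes. In the middle it was 3.33 and 3.30 in *Gb* and 6.07 and 5.85 in *Gh*, a shift of -2.64 ± 0.11 (SE). At the 3′ end it was 3.98 and 3.99 in *Gb* and 5.93 and 5.35 in *Gh*, a shift of -1.65 ± 0.29. At the 5′ end it was 5.44 and 4.90 in *Gb* and 6.52 and 6.17 in *Gh*, a shift of -1.17 ± 0.32. At all 3 positions both *Gb* arrays were below both *Gh* arrays, which the opposite directions of the designs already fix. The exact permutation test (two-sided) gave p = 0.333 for each, the smallest that 2 against 2 arrays allow. It was also 0.333 after Benjamini-Hochberg adjustment over 5 planned comparisons, these 3 and the 5′ minus 3′ shifts of both designs. The middle minus 3′ shifts given below were outside that adjustment.

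The difference between genotypes varied with the position along the transcript in both designs. The 5′ minus 3′ log2 signal of the *G. hirsutum*-designed sets was -3.03 and -3.07 in *Gb* and -2.18 and -2.52 in *Gh*, a shift of -0.70 ± 0.17 (SE). That of the *G. raimondii*-designed sets was -4.50 and -3.98 in *Gb* and -2.78 and -3.34 in *Gh*, a shift of -1.18 ± 0.38. Neither overlapped between genotypes, and each had an exact permutation p of 0.333, again the smallest possible. The *G. hirsutum*-designed shift was known when the group was put together, so its direction and lack of overlap are a description only. In the *G. raimondii* design the 5′ set was dim (5.73 to 6.34) and differed little between genotypes, by 0.32. The 3′ set differed by 1.504, so that shift comes mostly from the 3′ set. The 2 designs share the arrays and may share transcripts, so they are not separate evidence.

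Between the middle and the 3′ end the designs differed from each other. The middle minus 3′ log2 signal of the *G. hirsutum*-designed sets was -0.13 and -0.10 in *Gb* and -0.03 and -0.04 in *Gh*, a shift of only -0.080 ± 0.019 (SE). For the *G. raimondii*-designed sets it was 0.51 and 0.59 in *Gb* and -0.17 and -0.54 in *Gh*, a shift of 0.91 ± 0.19. The *Gb* arrays were above the *Gh* arrays in this measure without overlap, whereas its sign on a single array depends on how strongly the 2 sets bind and is not read.

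**Figure D3:**
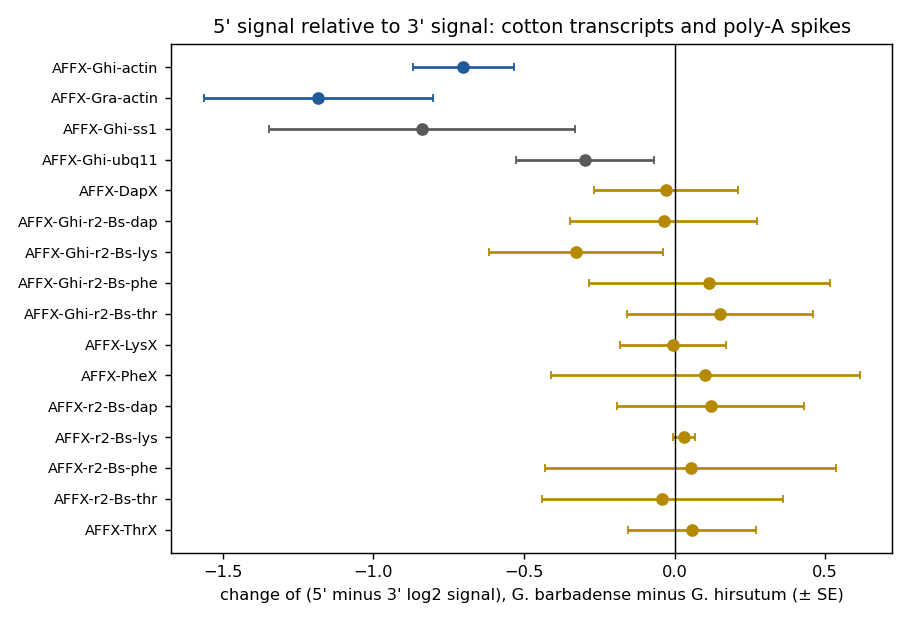
Change between genotypes (x axis, *Gb* minus *Gh*, ± SE from the spread of 2 arrays per genotype) of the 5′ minus 3′ log2 signal for each control transcript (y axis). The actin designs (blue) lie at -0.70 and -1.18, the other cotton controls (grey) at -0.84 and -0.30 and the 12 poly-A spike designs (yellow) between -0.33 and 0.15.

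The other cotton control transcripts with signal had a lower 5′ to 3′ signal in *Gb* as well. It was -4.87 and -5.04 in *Gb* and -3.62 and -4.62 in *Gh* for ss1, a shift of -0.84 ± 0.51 (SE). For ubq11 it was -1.94 and -1.80 in *Gb* and -1.36 and -1.79 in *Gh*, a shift of -0.30 ± 0.23. The ss1 and ubq11 shifts thus had the sign of the actin shifts, though the ubq11 values of the genotypes nearly touched. The poly-A spikes were not transcribed in the fiber. Their 12 designs read only dap, lys, phe and thr, each more than once, so they are not 12 separate transcripts. Across these designs the shift ran from -0.33 to 0.15 with a median of 0.042, lower in *Gb* in 5 and higher in 7. Relative to the spikes the actin shifts were -0.72 and -1.20, a comparison chosen after seeing the data. The 5′ signal alone was lower in *Gb* for the *G. hirsutum*-designed actin (*Gb* minus *Gh* -0.85) and ss1 (-1.87). It was not lower for ubq11 (0.15) and the *G. raimondii*-designed actin (0.32). The lower 5′ to 3′ signal of the other cotton transcripts thus went along with that of actin, and its part in the actin values was not tested.

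The *Gb* direction of the *G. raimondii*-designed actin sets had no counterpart in other controls of that design, because all 6 *G. raimondii*-designed ss1 and ubq11 sets were below the floor on every array (2.31 to 3.58). The *G. hirsutum*-designed ss1 sets were all higher on both *Gh* arrays, with log2 differences (*Gb* minus *Gh*) of -1.03 at the 3′ end, -1.74 in the middle and -1.87 at the 5′ end. The 3′ set (limma adjusted p = 0.0102) and the middle set (0.0278) passed and the 5′ set (0.0694) did not.

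The A1 set of the ACT11-like actin is described as moderately similar to Arabidopsis ACT11, an actin of reproductive tissues in that plant. Among the clusters, it was the member with the widest gap. Its signals were 2.12 and 2.49 in *Gb* and 9.47 and 9.93 in *Gh*. Both *Gb* arrays were below the floor and both *Gh* arrays were more than 5 log2 units above it. Against a floor of 4, *Gh* was at least 52.0-fold higher. No size beyond this bound is given, because the *Gb* signal is background. In all, 26 sets shared its pattern of 2 *Gb* arrays under the floor and a *Gh* mean above 9.

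The S1 set of the same cluster, which reads the other orientation, stayed under the floor. It was at 1.77 and 1.75 in *Gb* and 1.75 and 1.76 in *Gh*, and the genotypes overlapped. With no signal in either genotype, no fold is given, and the difference of this cluster was seen in the A1 orientation only.

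The second actin, described as strongly similar to ACT11, was well above the floor in both genotypes. Its signals were 11.95 and 12.003 in *Gb* and 13.40 and 13.40 in *Gh*. The arrays of each genotype lay within 0.1 of each other, and the genotypes were far apart by comparison. *Gh* was 2.68-fold higher, a difference of -1.42 ± 0.032 (SE, *Gb* minus *Gh*). This A1 set carries the suffix _s, so several transcripts share its probes and the difference need not be that of a single gene. In *Gb* 6.44% of probe sets were brighter than this one and in *Gh* 2.02%.

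The villin set (S1), described as weakly similar to Arabidopsis VLN1, a protein that bundles actin filaments, had signals of 8.70 and 9.02 in *Gb* and 10.71 and 10.75 in *Gh*. The *Gh* arrays nearly coincided and both exceeded the *Gb* arrays. *Gh* was 3.64-fold higher, a difference of -1.87 ± 0.13 (SE). The set also carries the suffix _s, so this difference need not be that of a single gene. The A1 set of the same cluster, which is not a member, lay close to the floor at 4.19 and 4.26 in *Gb* and 4.44 and 4.11 in *Gh*, with overlap and a difference of -0.052 ± 0.14 (SE). The villin difference was therefore seen in 1 orientation of the cluster.

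**Figure D4:**
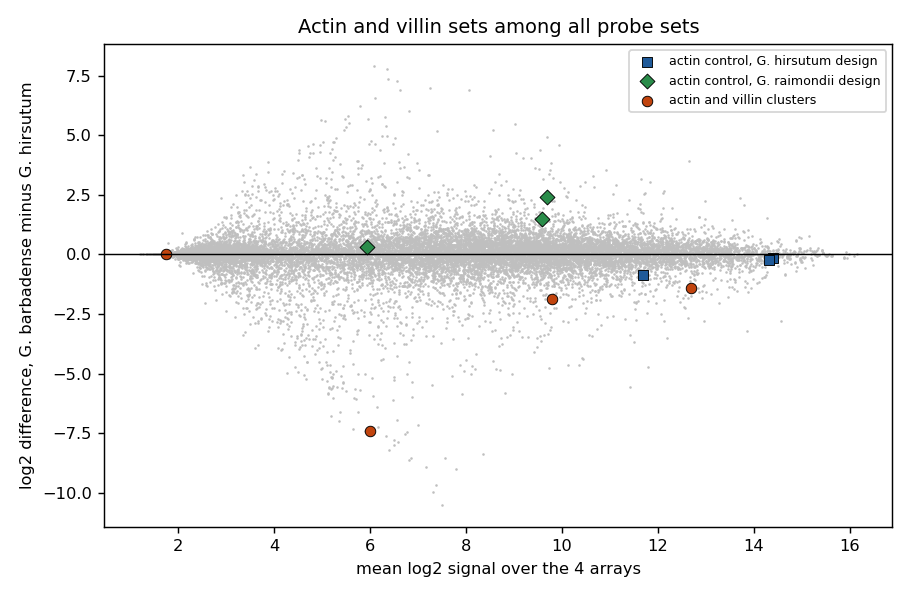
Difference in log2 signal, *Gb* minus *Gh* (y axis), against the mean log2 signal over the 4 arrays (x axis) for all 24132 probe sets (grey) and for the actin and villin sets (coloured by design or cluster). AFFX-Gra-actin-M_s_at is the highest member at 2.41, and the lowest is the ACT11-like actin A1 set, whose *Gb* signal is below the floor, so that its place on the y axis is not a measured size.

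Set against the whole array, where the median difference was 0.037, the 3 *G. hirsutum*-designed actin sets had a median of -0.23 and the 3 *G. raimondii*-designed sets one of 1.504. Probe sets that differed by 1 log2 unit or more numbered 1253 higher in *Gh* and 1120 higher in *Gb*. Of the 6 actin control sets, the middle and 3′ *G. raimondii*-designed ones were beyond that size, both in *Gb*. No summary is given for the cluster sets, whose choice fixes it.

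Names were available for 1159 probe sets, all of them higher in *Gh* by a log2 difference of at least 1, so the direction of these genes is fixed by the source. Besides 3 members, 4 of them carried a name that was searched for, and the names searched covered actin filament proteins, formin-interacting proteins, myosins and ROP guanine nucleotide exchange factors. A ROP guanine nucleotide exchange factor, of the family that activates the ROP GTPases upstream of actin, was at 4.39 and 4.90 in *Gb* and 6.91 and 7.07 in *Gh*, 5.08-fold higher in *Gh*. A myosin described as ATM2, a motor that moves along actin filaments, was at 5.56 and 5.10 in *Gb* and 7.12 and 6.78 in *Gh*, 3.07-fold higher. Neither set overlapped between genotypes. A second myosin set was at 10.01 and 9.79 in *Gb* and 11.11 and 11.01 in *Gh*, 2.23-fold higher. A set described as weakly similar to FIP1, a formin-interacting protein of Arabidopsis, and named GEM-like by Blast2GO was at 9.04 and 9.08 in *Gb* and 10.40 and 10.15 in *Gh*, 2.31-fold higher. Profilin, actin depolymerizing factor and fimbrin were not among these names, and their probe sets were not analysed here.

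Likeness to the members was measured as the root mean square distance over the 4 arrays after each set was centred on its own mean. For the A1 set of the ACT11-like actin, whose *Gb* values are background, the nearest set, which has no name here, was 0.18 away. The next were a set named as a TIR-NBS-LRR resistance protein at 0.185 and a set described as similar to naphthoate synthase at 0.187, and no set lay within 0.1. The second actin had 94 sets within 0.1, led by a set described as weakly similar to SAH7 of Arabidopsis at 0.0143. Next came an unnamed set at 0.0214 and a set at 0.0228 that Blast2GO names only as acting on the CH-CH group of donors. The unnamed set was under the floor on both *Gb* arrays (3.21 and 3.22) and at 4.63 and 4.67 in *Gh*, so its difference is not a measured size. The villin set had 29 sets within 0.1, led by a set without a gene name at 0.0266. It was followed by a set named as an NADPH-ferrihemoprotein reductase at 0.0301 and another set without a gene name at 0.0415. These distances rest on 4 arrays in 2 groups.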

How the data were processed

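Fiber RNA of 2 genotypes was hybridized to 4 cotton arrays, and the authors read the scans into R and normalized all arrays jointly with gcrma. The submitters' notes list GCRMA; its version is not given in the sources used here. Log2 signals were deposited, 1 column per array, for 24132 probe sets, of which 103 are control sets. Precision is limited by the number of arrays, and detection calls were not used. The study's results text and its methods differ on the age of the fiber, and the labels' 11 dpa was used. The authors' own comparison columns (differences and p-values) were not used.

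Genotypes were compared by linear models in limma 3.58.1 (R 4.3.3), moderated by eBayes with its default settings. The prior, estimated from these data, had 1.09 degrees of freedom. Two-sided p-values were adjusted by Benjamini-Hochberg over all 24132 sets, with a threshold of 0.05. The fit was tested on simulated data. Within-array differences of sets were compared with exact permutation tests. Groups with both arrays under log2 4 gave a lower bound against 4. Figures were drawn with Python 3.11.15 and matplotlib 3.10.9.

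The text names all 10 members, the other cotton control transcripts, the other sets of the same clusters, sets named for actin filament genes, and the 3 nearest patterns of 3 members. Members and lists were chosen with earlier results of these data known. Names came from array descriptions and Blast2GO in the study's list of sets that differ, of which 1159 entries were read. No probe set could be matched to the *G. barbadense* gene table. Alternatives covered the variance model, the p adjustment, a filter on dim sets, the control sets, the scaling, the floor, the position used and leaving out each array. The methods' t-test, which uses 1 variance common to all sets, was among them.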

Additional observations from a re-analysis of the deposited data

Results flagged for a closer look

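For the *G. raimondii*-designed actin control sets, the middle minus 3′ log2 signal differed between the genotypes by 0.91 (*Gb* minus *Gh*). It drew attention because its values were above 0 on both *Gb* arrays (0.51 and 0.59) and below 0 on both *Gh* arrays (-0.17 and -0.54). The place of 0 depends on the binding strength of 2 different probe sets, so the shift between genotypes can be read and the signs cannot. With 2 arrays per genotype the exact permutation test cannot go below 0.333, so the shift was in effect not tested.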

How the results depend on the processing

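The count of probe sets past the threshold, 4875 with limma, was 7581 with the methods' t-test after Benjamini-Hochberg, 32 with Bonferroni on the limma p, 7682 after scaling to the hybridization controls and 2496 to 3911 without 1 array. In the last of these the lone array of a genotype was assumed to vary like the other genotype's. The scaling moved the split to 1971 higher in *Gb* and 5711 in *Gh*, from 2747 and 2128, and the median of all differences by -0.29. The actin control sets past the threshold, 2 of 6, were 4 with the methods' t-test after Benjamini-Hochberg, 0 with Bonferroni on the limma p (4 had an unadjusted p under 0.05), 5 after scaling to the hybridization controls and 1 to 3 without 1 array. AFFX-Gra-actin-M_s_at kept its call in 13 of 14 alternatives, with Bonferroni on the limma p the exception (0.312). AFFX-Ghi-actin-5_x_at passed under 7 of them, among them an intensity trend (limma adjusted p = 0.022) and the filter on dim sets (0.0141).

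With the middle set in place of the 5′ set, the shift against the 3′ set was -0.080 for the *G. hirsutum*-designed actin sets and reversed to 0.91 for the *G. raimondii*-designed ones. The cause was not tested. Without 1 array the 5′ minus 3′ shift ranged from -0.87 to -0.54 and from -1.46 to -0.90, and the contrast of the designs from -1.94 to -1.36 at the 3′ end, -1.44 to -0.90 at the 5′ end and -2.75 to -2.53 in the middle. The bound for the ACT11-like actin A1 set was 104-fold with a floor of 3 and 26.0-fold with a floor of 5. No paired analysis was possible because the genotypes share no replicate number in the labels.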
